A study of Homo sapiens with 16 samples.

Results

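The 48 genes described here belong to the integrated stress response and the unfolded protein response. They were taken by symbol from the table of raw counts, in which each of the 48 names stands in exactly 1 of 57500 gene rows, and all 48 were among the 15566 genes that passed the filter on low counts. The members were split into 27 genes of the ATF4 arm (ATF4 and genes known as its targets) and 21 genes of the ATF6/XBP1 arm (the sensors of the endoplasmic reticulum, XBP1, and the chaperones, folding enzymes and degradation factors of that compartment). The cells were MDA-MB-231, an established human triple-negative breast cancer line, made to carry a hairpin RNA whose promoter is switched on by doxycycline. A hairpin against AKAP2 (shAKAP2) was compared with a scrambled control hairpin (shScramble), so that the 16 libraries fall into shAKAP2 with doxycycline (induced), shAKAP2 without it (uninduced), shScramble with doxycycline and shScramble without it, with 4 libraries each. All groups carry an inducible hairpin construct, and both conditions of a line share that line's construct. The number of hairpins or cell clones behind each line, and the dose and time of doxycycline, are not known from the sources used here. The labels name the libraries of a group biological replicates without saying whether they were separate cultures, so the spread behind each p-value may be technical.

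Both responses adjust protein synthesis and folding to stress. In the integrated stress response, kinases such as PERK (EIF2AK3) phosphorylate the initiation factor eIF2, which lowers general translation while the transcription factor ATF4 is translated more and turns on genes of amino acid supply, transfer RNA charging and stress signalling. In the unfolded protein response, the sensors ATF6, IRE1 (ERN1) and PERK detect misfolded proteins in the endoplasmic reticulum (ER), IRE1 splices the XBP1 message, and ATF6 and XBP1 induce ER chaperones and the genes of ER-associated degradation (ERAD), which exports misfolded proteins to the proteasome. Much of this control acts on translation, splicing, cleavage and phosphorylation, which counts per gene do not measure, and in bulk RNA fewer cells of a type and less RNA per cell cannot be told apart.

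Library totals ran between 24482997 and 37472525 counts. AKAP2 had 3, 0, 1 and 0 counts in the induced and 42, 36, 37 and 53 counts in the uninduced shAKAP2 libraries, and 22, 47, 56 and 87 counts in shScramble with and 55, 26, 29 and 34 counts without doxycycline. Of 5 luminal markers, the hormone receptors ESR1 and PGR and the factor FOXA1 had at most 3 counts in any library, while ERBB2 averaged 55.8 to 65 CPM and GATA3 11.3 to 18.9 CPM over the 4 groups. Of 6 epithelial markers, the keratins KRT7, KRT8, KRT18 and KRT19 were abundant. EPCAM averaged only 13.2 to 20.5 CPM and CDH1 0.0751 to 0.948 CPM over the 4 groups. Of 4 mesenchymal markers, VIM, CD44 and AXL were abundant and ZEB1 averaged 67.6 to 99.7 CPM. The replicate 1 libraries of shScramble stood apart from their groups: the median absolute log2 deviation of a gene from its group mean was 0.295 with and 0.263 without doxycycline, against 0.107 to 0.183 in the other 14 libraries. Mitochondrially encoded genes took 1.02% to 2.04% of counts in induced and 1.86% to 2.38% in uninduced shAKAP2 libraries, and 2.2% to 3.02% and 2.41% to 3.62% in shScramble with and without doxycycline. The summed level of 10 blood and myeloid markers was 50.8 to 67.5 CPM in induced and 72.7 to 83.9 CPM in uninduced shAKAP2 libraries, and 136 to 186 CPM and 84.3 to 102 CPM in shScramble with and without doxycycline. LAPTM5 gave most of it, and 9 fibroblast markers together stayed between 19.6 and 70.5 CPM in all libraries. The part of these markers and of the mitochondrial share in the results was not tested.

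Levels are given as CPM, which are counts scaled to library size, and also scaled to the length of annotated exons (RPKM) where genes are compared with each other. Per length, the ER chaperones were the most abundant members: over the 16 libraries calreticulin (CALR) averaged 523 RPKM, calnexin (CANX) 291 RPKM, GRP94 (HSP90B1) 289 RPKM and BiP (HSPA5) 242 RPKM. The next was the amino acid transporter SLC7A5 at 134 RPKM, followed by the disulfide isomerases PDIA3 at 107 RPKM and PDIA4 at 106 RPKM. ATF4 itself stood at rank 11 of 48 with 68.4 RPKM, and XBP1 at rank 21 with 24.2 RPKM. The sensors were much lower, ATF6 at 17.1 RPKM, EIF2AK3 at 3.65 RPKM and ERN1 at 0.842 RPKM. At the low end, PHGDH had 0.504 RPKM, NUPR1 0.43 RPKM and ALDH1L2 0.0926 RPKM, the last from 357 counts over all libraries. CANX and HSP90B1 differed by less than the spread among groups, as did PDIA3 and PDIA4.

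**Figure D1:**
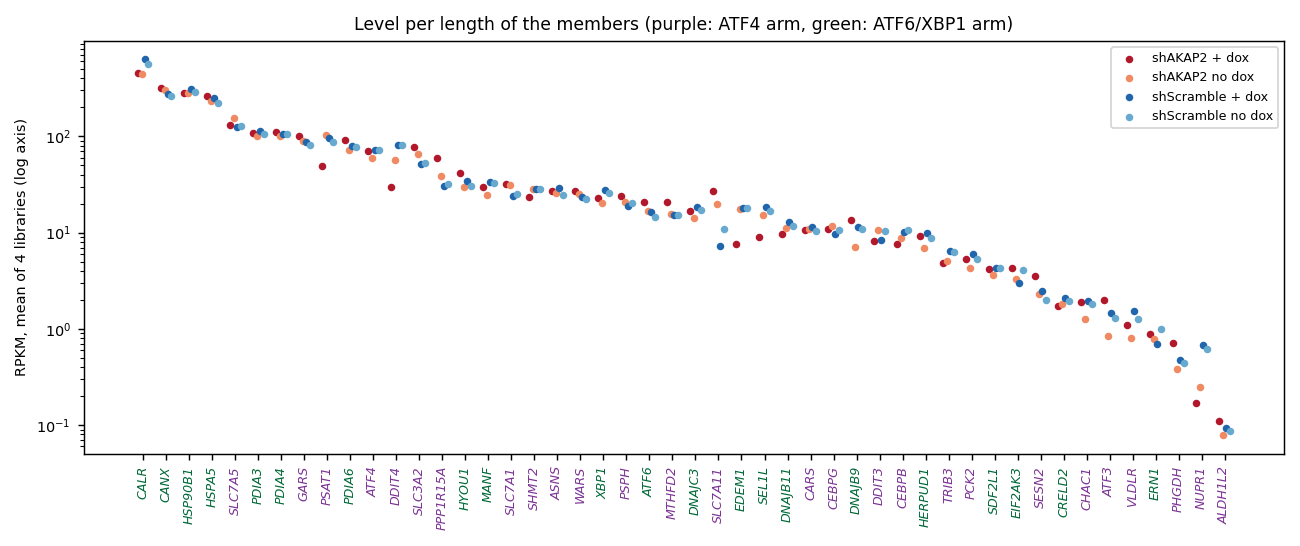
Mean level per length of each member in the 4 groups (RPKM, log axis), ordered by the mean over 16 libraries, with 1 point per group. Members span from 523 RPKM for CALR to 0.0926 RPKM for ALDH1L2, and the points of a gene lie close together for most members.

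Inducing the AKAP2 hairpin changed 20 of the 48 members, by edgeR's quasi-likelihood test with Benjamini-Hochberg adjustment over all genes at an adjusted p under 0.05. In the ATF4 arm 5 of 27 were higher and 4 lower, and in the ATF6/XBP1 arm 8 of 21 were higher and 3 lower, where 13.1% of all genes tested were higher and 15.2% lower. The median log2 fold change was 0.15 in the ATF4 arm and 0.17 in the ATF6/XBP1 arm, against 0.00 over all genes. In shScramble cells doxycycline changed 0 of 27 and 0 of 21, where 0.559% of all genes were higher and 0.52% lower. The difference between the lines' doxycycline effects, which is the interaction term, was called in 12 members: 4 higher and 1 lower in the ATF4 arm and 4 higher and 3 lower in the ATF6/XBP1 arm, where 7.53% of all genes were higher and 10.5% lower. With any 1 library left out, the calls on induction in the ATF6/XBP1 arm numbered 7 to 10 instead of 11. The lowest count was without replicate 3 of induced shAKAP2. Calls over all genes fell as well, to 3595 to 4028 from 4405. The difference calls in the ATF4 arm numbered 3 instead of 5 without induced shAKAP2 replicate 3, uninduced shAKAP2 replicate 2 or treated shScramble replicate 4. Over the omissions they numbered 3 to 7, and those of all genes 2249 to 3622, against 2802 with all libraries. These comparisons share groups, so their values are set side by side and not as independent results.

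The called changes were small in both directions. Of the 20, only ATF3, PSAT1 and EDEM1 changed by more than 2-fold, and neither arm moved in 1 direction. Members of the same pathway went opposite ways: DNAJB9 rose while EDEM1 and SEL1L fell in the ATF6/XBP1 arm, and PHGDH rose while PSAT1 fell in the ATF4 arm. Without both shScramble libraries numbered 1, 12 members of the ATF4 arm were higher and 4 lower, and 12 of the ATF6/XBP1 arm were higher and 3 lower in the shAKAP2 line, with 19.3% of all genes higher and 20.1% lower.

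**Figure D2:**
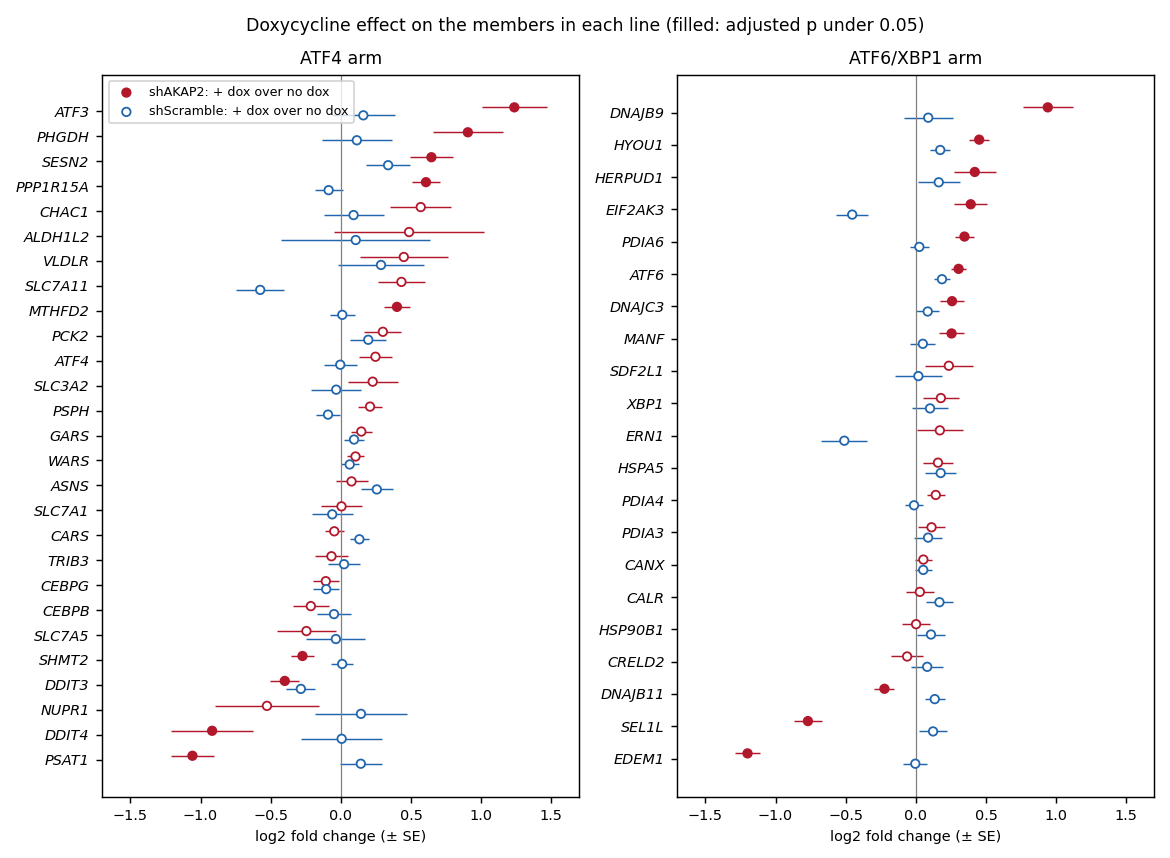
Log2 fold change of doxycycline over no doxycycline (x axis, bars ± SE) for the members of each arm, in shAKAP2 (red) and shScramble (blue), ordered by the shAKAP2 value; filled points passed an adjusted p under 0.05. Red points are filled for 20 members, between -1.20 for EDEM1 and 1.24 for ATF3, and no blue point is filled.

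Of the 3 ER stress sensors, ATF6 and EIF2AK3 rose on induction and ERN1 was not called. ATF6 (ENSG00000118217, chr1:161766294-161964070, plus strand), the membrane-bound factor released by cleavage, had 171, 163, 163 and 156 CPM in the induced and 132, 134, 132 and 130.1 CPM in the uninduced shAKAP2 libraries. In shScramble it had 126, 124, 134 and 137 CPM with and 113, 111, 119 and 114 CPM without doxycycline. Within each line all treated libraries lay above the untreated ones, and all shAKAP2 libraries lay above shScramble of the same treatment. The rise passed in shAKAP2 (log2 fold change 0.30, SE 0.0555, adjusted p = 0.000295) and not in shScramble (log2 fold change 0.19, SE 0.0555, adjusted p = 0.149), and their difference of 0.12 (SE 0.0784, adjusted p = 0.338) was not called. Between the lines ATF6 was higher in shAKAP2 both with doxycycline, by 0.33 (SE 0.0555, adjusted p = 9.11e-05), and without it, by 0.21 (SE 0.0555, adjusted p = 0.0145). The last call was lost with no filter on low counts (adjusted p = 0.0931).

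PERK and IRE1 transcripts differed between the lines in how they followed doxycycline. EIF2AK3, which encodes PERK, had 21.3, 21.4, 26.1 and 24 CPM in induced and 18.4, 16.7, 17.5 and 18.2 CPM in uninduced shAKAP2 cells. In shScramble the values were 18.3, 15.2, 13.7 and 17.9 CPM with and 27.2, 22.1, 19.8 and 19.7 CPM without doxycycline. The treated libraries lay above the untreated ones in shAKAP2 and below them in shScramble, with no overlap in either line. EIF2AK3 rose in shAKAP2 (log2 fold change 0.39, SE 0.116, adjusted p = 0.015), although not without induced shAKAP2 replicate 3 (adjusted p = 0.0648). Its shScramble value was -0.45 (SE 0.116, adjusted p = 0.0682), and the difference between the lines' effects was 0.84 (SE 0.164, adjusted p = 0.00106). ERN1, which encodes IRE1, had 11.2, 9.64, 9.47 and 8.46 CPM in induced and 9.06, 9.87, 8.52 and 6.99 CPM in uninduced shAKAP2 cells, which overlap. Its shScramble values were 7.64, 5.71, 7.51 and 9.35 CPM with and 13.7, 11, 9.39 and 8.97 CPM without doxycycline, and these overlap too. The difference of the effects was called for ERN1 at 0.68 (SE 0.23, adjusted p = 0.0447), from 0.17 in shAKAP2 and -0.51 in shScramble, neither of which passed. That call was lost without induced shAKAP2 replicate 1, 2 or 3, uninduced shAKAP2 replicate 1, 3 or 4, doxycycline-treated shScramble replicate 2 or 3 or untreated shScramble replicate 1 or 2 (adjusted p of 0.0611 to 0.101). It was also lost without both shScramble libraries numbered 1, at 0.54 (SE 0.217, adjusted p = 0.0585).

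XBP1 (ENSG00000100219, chr22:28794555-28800597, minus strand), whose message IRE1 splices, had 64.5, 77.5, 71.3 and 65.5 CPM in induced and 59.8, 65.5, 63.2 and 57.9 CPM in uninduced shAKAP2 libraries. The shScramble libraries had 108, 82.6, 70.8 and 74 CPM with and 99.4, 77.2, 67.3 and 68.6 CPM without doxycycline. The shAKAP2 groups overlap, and the highest value in each shScramble group is that of replicate 1. Its change of 0.18 (SE 0.127, adjusted p = 0.327) was not called in shAKAP2, nor was 0.10 (SE 0.127, adjusted p = 0.897) in shScramble. Without both shScramble libraries numbered 1 it was called as higher in shAKAP2, by 0.18 (SE 0.0673, adjusted p = 0.0365). Counts per gene do not separate the spliced from the unspliced message.

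The largest fold change of the ATF6/XBP1 arm was that of an ERAD gene, and ERAD genes went in opposite directions. EDEM1 (ENSG00000134109, chr3:5187646-5219957, plus strand), a mannosidase-like protein that directs misfolded glycoproteins to ERAD, had 51.3, 53.3, 49.5 and 54 CPM in induced and 124, 116, 117 and 120.4 CPM in uninduced shAKAP2 libraries. shScramble libraries gave 133, 113, 118 and 121 CPM with and 148, 121, 101 and 116 CPM without doxycycline. The induced shAKAP2 libraries lay below every other library, and the other 3 groups overlapped. EDEM1 fell in shAKAP2 (log2 fold change -1.20, SE 0.0886, adjusted p = 2.64e-09), against 0.00 (SE 0.0866) in shScramble, and the difference was -1.20 (SE 0.124, adjusted p = 7.51e-07). With doxycycline it was lower in shAKAP2 than in shScramble, with a log2 fold change of -1.22 (SE 0.0887, adjusted p = 1.34e-09), while without doxycycline the value was -0.02 (SE 0.0866, adjusted p = 0.881), which was not called.

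SEL1L (ENSG00000071537, chr14:81471549-81533861, minus strand), the partner that holds the HRD1 ubiquitin ligase of ERAD together, followed the same pattern. It had 85.1, 90.3, 79.9 and 89 CPM in induced and 149.8, 148, 142 and 147 CPM in uninduced shAKAP2 libraries. In shScramble the values were 192, 168, 166 and 173 CPM with and 212, 152, 138 and 140.1 CPM without doxycycline. Every induced shAKAP2 library was below every other library. The fall was -0.77 (SE 0.102, adjusted p = 8.33e-06) in shAKAP2, and the difference from shScramble's 0.12 (SE 0.101) was -0.89 (SE 0.143, adjusted p = 0.000164). HERPUD1, an ERAD adaptor of the ER membrane, rose instead, to 47.6 ± 4.69 CPM in induced against 35.6 ± 3.36 CPM in uninduced shAKAP2 cells (SD, n = 4 each; log2 fold change 0.42, SE 0.149, adjusted p = 0.0426). The HERPUD1 call was lost with no filter on low counts (adjusted p = 0.134) and without induced shAKAP2 replicate 1, 2, 3 or 4 or uninduced shAKAP2 replicate 1, 2 or 3 (adjusted p of 0.051 to 0.13), and its difference between lines, 0.26 (SE 0.21, adjusted p = 0.453), was not called.

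The 7-letter word GAACACA was found more often in 3' untranslated regions (3' UTRs) of lowered genes by an earlier analysis of these data. Among genes with an annotated 3' UTR it stood in 32.6% of those lower in induced shAKAP2 cells, 6.17% of those higher and 10.8% of those not called. The word was chosen from these same data, so these shares are a description and no independent support. They were also not matched on 3' UTR length. Of the members the word stood in 2 of 7 lower, 1 of 13 higher and 2 of 28 not called, 5 in all, each with 1 copy. The sites are shown because members with the same direction differ in holding one: SEL1L and PSAT1 hold the word, while EDEM1, with a 3' UTR of 4039 bases, and DDIT4 hold none. GRCh38 letters are given 5′ to 3′ on the transcript's strand, written as DNA, with the word in capitals.
SEL1L (chr14:81476001-81476027, 3' UTR): tttgcacaaaGAACACAtcaccttcct
PSAT1 (chr9:78329424-78329450, 3' UTR): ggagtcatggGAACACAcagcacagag
EIF2AK3 (chr2:88556797-88556823, 3' UTR): gtggtgtacaGAACACActtaagtgtg
CEBPG (chr19:33381788-33381814, 3' UTR): tttcaaatcaGAACACAagattggaac
NUPR1 (chr16:28534712-28534738, 3' UTR): tctaaaagtaGAACACAtcacatctgc
EIF2AK3, which holds the word, rose. CEBPG and NUPR1 were not called. The hairpin's own sequence is not given in the sources used here, and a match of letters is a description only.

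**Figure D3:**
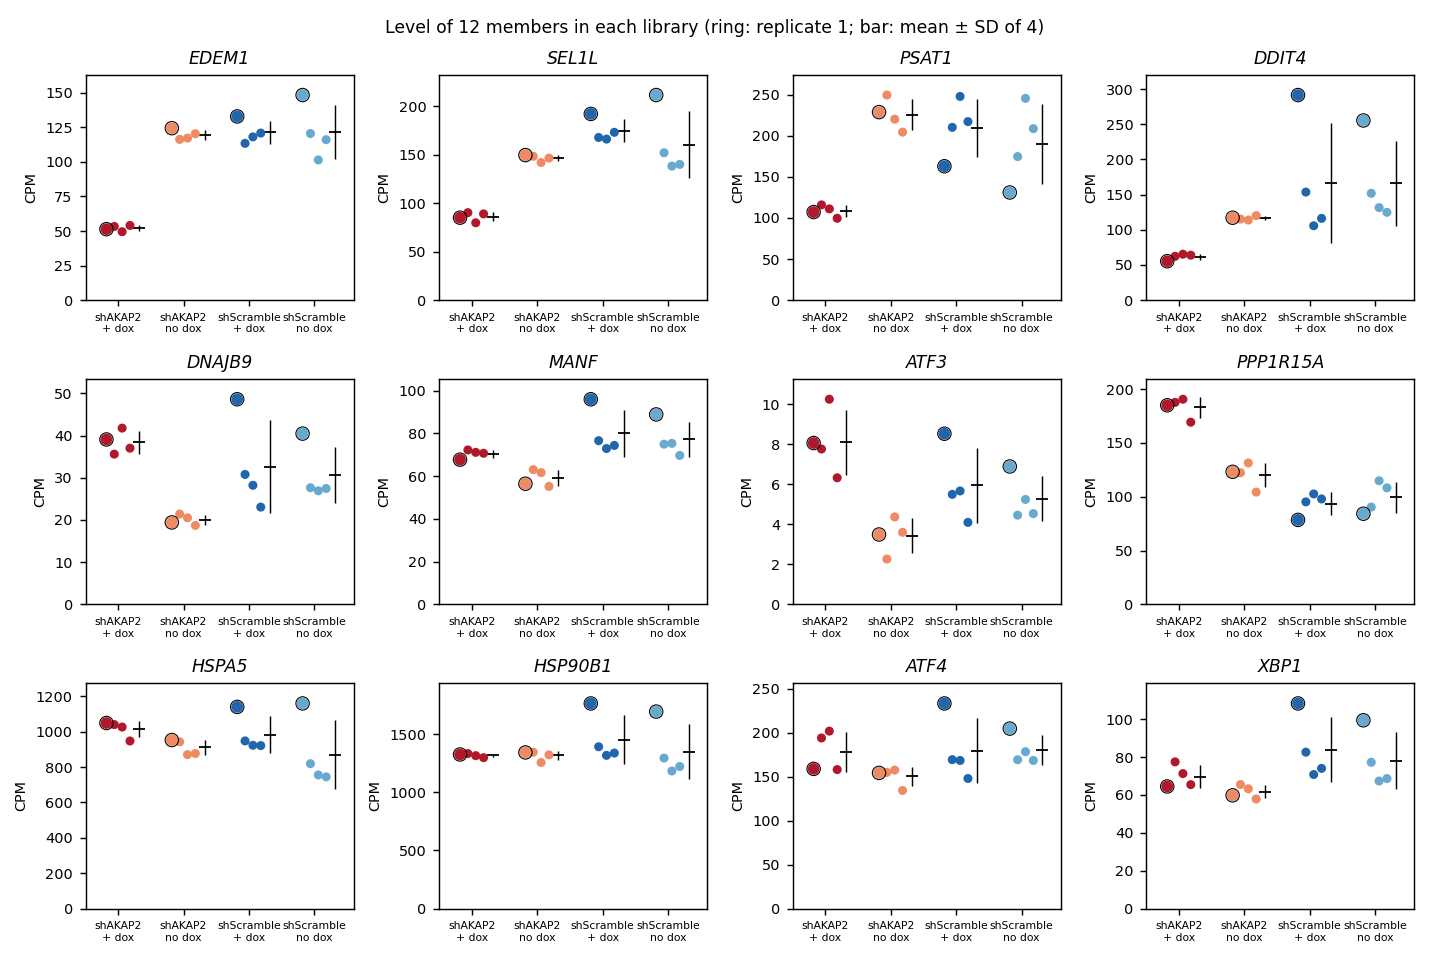
CPM of 12 members in each of the 16 libraries (points; ring, replicate 1; bar, mean ± SD of 4), by group from induced shAKAP2 on the left to shScramble without doxycycline on the right. EDEM1, SEL1L and PSAT1 are lowest in induced shAKAP2, DNAJB9 and MANF are lowest in uninduced shAKAP2, and the ringed shScramble points of HSPA5 and HSP90B1 lie above the other 3 of their groups.

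Among ER chaperones and cochaperones, 5 rose and 1 fell on induction, where 13.1% of all genes were higher and 15.2% lower. The most abundant ones were not called. HYOU1, a large ER chaperone that exchanges nucleotide on BiP, had 323, 321, 322 and 301 CPM in induced and 254, 240.0, 217 and 216 CPM in uninduced shAKAP2 libraries. In the control line it had 237, 254, 288 and 274 CPM with and 259, 230.2, 223 and 220.4 CPM without doxycycline. Induced shAKAP2 libraries were above all the others. HYOU1 rose in shAKAP2 (log2 fold change 0.45, SE 0.0731, adjusted p = 8.64e-05), shScramble gave 0.17 (SE 0.073, adjusted p = 0.435), and the difference of 0.28 (SE 0.103, adjusted p = 0.0688) was not called. PDIA6, a disulfide isomerase, had 362, 381, 398 and 373 CPM in induced and 302, 304, 288 and 297 CPM in uninduced shAKAP2 libraries. Its shScramble values were 357, 323, 315 and 297 CPM with and 355, 300.4, 324 and 291 CPM without doxycycline. Here too every induced shAKAP2 library lay above every other library. PDIA6 rose by 0.35 (SE 0.0683, adjusted p = 0.000642), and the difference between the effects was 0.32 (SE 0.0965, adjusted p = 0.0247), lost without induced shAKAP2 replicate 3, uninduced shAKAP2 replicate 3 or doxycycline-treated shScramble replicate 4 (adjusted p of 0.054 to 0.0553). Of PDIA6's exonic bases 25.2% are shared with ATP6V1C2 on the opposite strand, and the use of strand in counting is not given in the sources used here.

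DNAJB9, DNAJC3 and MANF shared another pattern, in which the uninduced shAKAP2 cells were lowest. DNAJB9 (ENSG00000128590, chr7:108569568-108574850, plus strand), a J protein that works with BiP and holds IRE1 inactive, had 39.1, 35.6, 41.8 and 37 CPM in induced and 19.4, 21.4, 20.5 and 18.7 CPM in uninduced shAKAP2 libraries. In shScramble it had 48.6, 30.8, 28.2 and 23 CPM with and 40.5, 27.6, 26.9 and 27.5 CPM without doxycycline. The uninduced shAKAP2 libraries lay below all others. Induced shAKAP2 overlapped shScramble only through the replicate 1 libraries of shScramble, and lay above its other libraries. Without both shScramble libraries numbered 1, edgeR called DNAJB9 as higher in induced shAKAP2 than in treated shScramble (log2 fold change 0.49, SE 0.0905, adjusted p = 3.72e-05). DNAJB9 rose in shAKAP2 (log2 fold change 0.94, SE 0.179, adjusted p = 0.000676) and was lower in uninduced shAKAP2 than in untreated shScramble cells (log2 fold change -0.62, SE 0.178, adjusted p = 0.0244), comparisons that share the uninduced shAKAP2 libraries. The second was lost with no filter on low counts (adjusted p = 0.076) and without uninduced shAKAP2 replicate 1, 3 or 4 or untreated shScramble replicate 1 (adjusted p of 0.0506 to 0.0731). The difference of the effects, 0.85 (SE 0.25, adjusted p = 0.025), was lost with no filter on low counts (adjusted p = 0.081) and without uninduced shAKAP2 replicate 4 or doxycycline-treated shScramble replicate 3 (adjusted p of 0.0513 to 0.0517).

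MANF, a secreted protein that ER stress induces, had 67.7, 72.3, 71.2 and 70.7 CPM in induced and 56.5, 63.1, 61.6 and 55.2 CPM in uninduced shAKAP2 libraries. Its shScramble values were 96, 76.6, 72.9 and 74.4 CPM with and 88.9, 75, 75.4 and 69.7 CPM without doxycycline. Uninduced shAKAP2 was again lowest without overlap. MANF rose by 0.25 (SE 0.0889, adjusted p = 0.0369) in shAKAP2, which was lost without induced shAKAP2 replicate 2, 3 or 4 or uninduced shAKAP2 replicate 1, 3 or 4 (adjusted p of 0.0508 to 0.111), and without doxycycline it was lower in shAKAP2 than in shScramble, with a log2 fold change of -0.39 (SE 0.0887, adjusted p = 0.00549). DNAJC3, a J protein known as an inhibitor of eIF2 kinases, had 93.6, 96.4, 99.9 and 87.3 CPM in induced and 80.5, 82.7, 75.3 and 77 CPM in uninduced shAKAP2 libraries, with no overlap. The shScramble libraries had 101, 103, 106 and 101 CPM with and 116, 99.5, 81.8 and 90.02 CPM without doxycycline. Its rise of 0.26 (SE 0.0835, adjusted p = 0.0252) was lost without induced shAKAP2 replicate 2 or 3 or uninduced shAKAP2 replicate 3 or 4 (adjusted p of 0.064 to 0.0859). Without doxycycline it was lower in shAKAP2, with a log2 fold change of -0.30 (SE 0.0834, adjusted p = 0.0191), which was lost without uninduced shAKAP2 replicate 3 or untreated shScramble replicate 1 (adjusted p of 0.0595 to 0.0648), and the value was -0.19 without the second of these.

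DNAJB11, a J protein that feeds misfolded chains to BiP, fell. It had 54.1, 55.9, 59.2 and 52.6 CPM in induced and 66.2, 64.5, 64.1 and 64.1 CPM in uninduced shAKAP2 libraries, and 81.1, 72.2, 71.5 and 67.6 CPM with and 70.3, 71.1, 63.4 and 61.4 CPM without doxycycline in shScramble. The induced shAKAP2 libraries lay below all others. The fall was -0.22 (SE 0.0711, adjusted p = 0.0226), lost with no filter on low counts (adjusted p = 0.0645) and without induced shAKAP2 replicate 1 or 4 or uninduced shAKAP2 replicate 1 (adjusted p of 0.0542 to 0.0589), and the difference between the effects was -0.36 (SE 0.1, adjusted p = 0.0166). BiP itself, encoded by HSPA5 (ENSG00000044574, chr9:125234853-125241330, minus strand), had 1049.5, 1041, 1027 and 948 CPM in induced and 953, 943, 871 and 877 CPM in uninduced shAKAP2 libraries, and 1141, 948, 923 and 922 CPM with and 1160.2, 819, 756 and 745 CPM without doxycycline in shScramble. Both groups of each line overlap, and replicate 1 is the highest shScramble library in each condition. The change of 0.16 (SE 0.109, adjusted p = 0.311) in shAKAP2 was not called, nor was 0.18 (SE 0.109, adjusted p = 0.691) in shScramble. Without both shScramble libraries numbered 1 both were called, at 0.15 (SE 0.0421, adjusted p = 0.00345) and 0.27 (SE 0.0486, adjusted p = 0.000446), with a difference of -0.12 (SE 0.0642, adjusted p = 0.179).

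The remaining 7 chaperones and folding factors were not called on induction, with log2 fold changes between -0.06 for CRELD2 and 0.23 for SDF2L1. HSP90B1 averaged 1318 ± 15.3 CPM in induced and 1317 ± 41.4 CPM in uninduced shAKAP2 cells (SD, n = 4 each), a log2 difference of 0.00 (SE 0.0981). CALR averaged 1238 ± 55.8 CPM in induced and 1214 ± 41.2 CPM in uninduced cells, and CANX 1978 ± 55 CPM and 1906 ± 95.5 CPM. PDIA3 gave 0.11 (SE 0.0989) and PDIA4 0.14 (SE 0.0659), and both passed as higher without both shScramble libraries numbered 1.

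Promoters of ER chaperone genes are known for the ER stress elements ERSE (CCAAT, 9 bases of any kind, CCACG) and ERSE-II (ATTGGNCCACG), which ATF6 and XBP1 bind with partner factors. RefSeq promoters (GRCh38.p14, 250 bases before to 50 after the start) were found for 20 of the 21 members of the ATF6/XBP1 arm and 22 of the 27 of the ATF4 arm, and both strands were searched. ERSE stood in 6 of the 20 and ERSE-II in 3 other ones, against 0.0769% and 0.0541% of all 35116 promoters, and in 0 of the 22 promoters of the ATF4 arm. The elements are shown because the 9 genes that hold one include the abundant chaperones, on the gene's strand 5′ to 3′ with the element in capitals. Where it lies on the opposite strand, it reads as CGTGG before ATTGG or CCAAT.
HYOU1 (chr11:119057371-119057399, ERSE-II 175 bases before the start): gccccgtgaCGTGGTCCAATcccaggccg
HYOU1 (chr11:119057265-119057293, ERSE-II 69 bases before the start): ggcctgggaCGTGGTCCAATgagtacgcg
HERPUD1 (chr16:56932016-56932044, ERSE-II 107 bases before the start): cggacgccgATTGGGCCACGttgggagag
PDIA6 (chr2:10812848-10812876, ERSE 68 bases before the start): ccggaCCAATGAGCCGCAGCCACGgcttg
HSPA5 (chr9:125241386-125241414, ERSE 48 bases before the start): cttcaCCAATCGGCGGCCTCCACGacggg
HSP90B1 (chr12:103930211-103930239, ERSE 176 bases before the start): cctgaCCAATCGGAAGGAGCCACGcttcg
HSP90B1 (chr12:103930316-103930344, ERSE 71 bases before the start): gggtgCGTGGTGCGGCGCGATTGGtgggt
CALR (chr19:12938379-12938407, ERSE 207 bases before the start): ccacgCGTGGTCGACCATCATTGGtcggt
CANX (chr5:179698773-179698801, ERSE 171 bases before the start): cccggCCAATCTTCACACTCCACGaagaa
CRELD2 (chr22:49918549-49918577, ERSE 62 bases before the start): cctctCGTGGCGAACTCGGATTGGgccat
SDF2L1 (chr22:21642105-21642133, ERSE-II 178 bases before the start): cctcggaagCGTGGACCAATcaaaaccct
In GENCODE release 29, transcripts of PDIA6, HSP90B1, CANX and CRELD2 begin further upstream, so their windows lie within the annotated gene. Over all genes tested, 13.1% were higher and 15.2% lower on induction of the AKAP2 hairpin. Of the 9 genes with an element, 3 were higher (HYOU1, HERPUD1 and PDIA6), 0 lower and 6 not called, between -0.06 and 0.45 on the log2 scale. The HERPUD1 call was lost under several alternatives, as given above, and the part of the element in these calls was not tested. Of the 11 without one, 5 were higher, 3 lower and 3 not called, between -1.20 and 0.94, and EDEM1, SEL1L and DNAJB9 are among them. The UPRE motif (TGACGTGG) stood in HYOU1, overlapping its ERSE-II, and in CARS of the ATF4 arm, against 0.729% of all promoters.

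In the ATF4 arm, ATF4 (ENSG00000128272, chr22:39519695-39522685, plus strand) was not called. It had 159, 194, 202 and 158 CPM in induced and 154, 155, 157 and 134 CPM in uninduced shAKAP2 libraries, and 233, 169, 168 and 148 CPM with and 205, 169, 178 and 168 CPM without doxycycline in shScramble. The induced shAKAP2 libraries all lay above the uninduced ones, by little, and replicate 1 of shScramble was the highest library in both of its groups. The value was 0.25 (SE 0.117, adjusted p = 0.128) in shAKAP2 and 0.00 (SE 0.117, adjusted p = 0.997) in shScramble. Without both shScramble libraries numbered 1 ATF4 was called as higher in shAKAP2, by 0.24 (SE 0.0725, adjusted p = 0.00998), and the difference of the effects was 0.33 (SE 0.111, adjusted p = 0.0272). ATF4 protein is controlled by translation, which was not measured.

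The other stress transcription factors of the arm went in both directions. ATF3 (ENSG00000162772, chr1:212565334-212620777, plus strand), a stress-induced bZIP factor, had 8.07, 7.77, 10.3 and 6.33 CPM in induced and 3.49, 2.27, 4.38 and 3.6 CPM in uninduced shAKAP2 libraries. shScramble libraries gave 8.54, 5.5, 5.67 and 4.1 CPM with and 6.9, 4.46, 5.25 and 4.54 CPM without doxycycline. Induced libraries lay above uninduced ones in shAKAP2. They overlapped both shScramble groups only through the replicate 1 libraries of shScramble. Without both of these, edgeR called ATF3 as higher in induced shAKAP2 than in treated shScramble (log2 fold change 0.67, SE 0.191, adjusted p = 0.00435). ATF3 rose in shAKAP2 (log2 fold change 1.24, SE 0.23, adjusted p = 0.000359), and its difference from shScramble, 1.08 (SE 0.321, adjusted p = 0.0239), was lost without induced shAKAP2 replicate 3, uninduced shAKAP2 replicate 2 or doxycycline-treated shScramble replicate 4 (adjusted p of 0.0514 to 0.0601). DDIT3, which encodes the pro-apoptotic factor CHOP, had 10.2, 11.8, 9.85 and 10.8 CPM in induced and 13.8, 15.2, 13.1 and 14.1 CPM in uninduced shAKAP2 libraries. In the control line it had 11.7, 10.2, 11.3 and 11.1 CPM with and 11.9, 13.2, 15.3 and 13.6 CPM without doxycycline. In both lines every treated library lay below every untreated one. DDIT3 fell in shAKAP2 (log2 fold change -0.40, SE 0.104, adjusted p = 0.00646), shScramble gave -0.29 (SE 0.104, adjusted p = 0.305), and the difference of -0.11 (SE 0.147, adjusted p = 0.661) was not called. DDIT3 shares 31.6% of its exonic bases with MARS and MBD6 on the opposite strand. CEBPB and CEBPG, bZIP partners of ATF4, were not called, at -0.21 (SE 0.126) and -0.11 (SE 0.0929).

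PPP1R15A (ENSG00000087074, chr19:48872392-48876057, plus strand), which encodes GADD34, the subunit that directs a phosphatase to eIF2, rose. It had 185, 188, 191 and 169 CPM in induced and 123, 122, 131 and 104 CPM in uninduced shAKAP2 libraries. In shScramble it had 78.5, 95.2, 103 and 97.9 CPM with and 84.2, 90.4, 115 and 108 CPM without doxycycline. Every induced shAKAP2 library exceeded every other library. PPP1R15A rose in shAKAP2 (log2 fold change 0.61, SE 0.0987, adjusted p = 9.05e-05), shScramble gave -0.09 (SE 0.0989), and the difference was 0.69 (SE 0.14, adjusted p = 0.00145). With doxycycline it was higher in shAKAP2 than in shScramble by 0.97 (SE 0.0994, adjusted p = 1.91e-07). All 3 calls held under each of the alternatives run, with log2 values of 0.54 to 0.65, 0.61 to 0.76 and 0.89 to 1.02.

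Serine synthesis and one-carbon genes, which feed nucleotide and glutathione synthesis, moved in opposite directions at successive steps. PSAT1 (ENSG00000135069, chr9:78297143-78330093, plus strand), the transaminase that is the second enzyme of serine synthesis, had 107, 116, 111 and 99.6 CPM in induced and 229, 249.6, 220.3 and 204 CPM in uninduced shAKAP2 libraries. Its shScramble values were 163, 210.2, 248 and 217 CPM with and 131, 175, 246 and 209 CPM without doxycycline. The induced shAKAP2 libraries were lowest, without overlap. PSAT1 fell in shAKAP2 (log2 fold change -1.06, SE 0.153, adjusted p = 5.87e-05), and the difference from shScramble's 0.14 (SE 0.151) was -1.20 (SE 0.214, adjusted p = 0.000848). PHGDH, the first enzyme, rose at a low level, to 6.58 ± 0.66 CPM in induced against 3.52 ± 0.523 CPM in uninduced cells (SD, n = 4 each; log2 fold change 0.91, SE 0.25, adjusted p = 0.00936), and its difference of 0.79 (SE 0.352, adjusted p = 0.135) was not called. PSPH, the last enzyme, gave 0.21 (SE 0.0865, adjusted p = 0.0798) and was not called. Without both shScramble libraries numbered 1 it was called as higher, by 0.20 (SE 0.0723, adjusted p = 0.0236). Its difference from shScramble was then called too, at 0.32 (SE 0.111, adjusted p = 0.0275), while that of PHGDH was not (adjusted p = 0.0656).

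Of the mitochondrial folate enzymes, MTHFD2 had 94.7, 103, 109 and 97.7 CPM in induced and 77.3, 74.4, 83.8 and 71.2 CPM in uninduced shAKAP2 libraries, and 69.8, 72.9, 80.2 and 74.7 CPM with and 59, 73.7, 80.4 and 82.5 CPM without doxycycline in shScramble. The induced shAKAP2 libraries lay above all others. MTHFD2 rose in shAKAP2 (log2 fold change 0.40, SE 0.0895, adjusted p = 0.00197). Its difference from shScramble, 0.39 (SE 0.127, adjusted p = 0.0369), was lost without induced shAKAP2 replicate 2, 3 or 4, uninduced shAKAP2 replicate 1, 2 or 4, doxycycline-treated shScramble replicate 2 or 4 or untreated shScramble replicate 2, 3 or 4 (adjusted p of 0.0536 to 0.0894). MTHFD2 shares 33.2% of its exonic bases with genes on the opposite strand, mainly SLC4A5. SHMT2, which passes the serine carbon to folate, had 111, 119, 118 and 105 CPM in induced and 139.8, 138, 141 and 129 CPM in uninduced shAKAP2 libraries. The shScramble libraries had 128, 132, 151 and 143 CPM with and 119, 129.6, 156 and 146 CPM without doxycycline. The induced shAKAP2 libraries lay below all others, though the lowest untreated shScramble library came within 1 CPM of them. SHMT2 fell in shAKAP2 (log2 fold change -0.27, SE 0.0793, adjusted p = 0.0128), and the difference of -0.28 (SE 0.112, adjusted p = 0.0887) was not called. Without both shScramble libraries numbered 1 that difference was called, at -0.26 (SE 0.0876, adjusted p = 0.0213). ALDH1L2, which oxidises formyl folate, was near 1 CPM at 0.939 ± 0.425 CPM in induced and 0.675 ± 0.339 CPM in uninduced cells and was not called.

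Inhibitors of mTORC1, the growth kinase that senses amino acids, also split. DDIT4, which encodes REDD1, had 55.3, 62.3, 65.3 and 63.9 CPM in induced and 117, 115, 114 and 120.2 CPM in uninduced shAKAP2 libraries. shScramble libraries gave 292, 154, 106 and 116 CPM with and 255, 152, 132 and 125 CPM without doxycycline. Induced shAKAP2 was lowest without overlap, and replicate 1 of each shScramble group was far above the other 3. DDIT4 fell in shAKAP2 (log2 fold change -0.92, SE 0.293, adjusted p = 0.0318), and the call was lost with no filter on low counts (adjusted p = 0.0694) and without induced shAKAP2 replicate 1, 2, 3 or 4 or uninduced shAKAP2 replicate 1, 2, 3 or 4 (adjusted p of 0.0552 to 0.0769). With replicate 1 of both shScramble groups left out, the fall was -0.92 (SE 0.0952, adjusted p = 6.12e-07), and the difference between the effects, -0.92 (SE 0.41, adjusted p = 0.149) with all libraries, was -0.80 (SE 0.143, adjusted p = 0.000367). DDIT4 shares 41.2% of its exonic bases with DDIT4-AS1 on the opposite strand. SESN2, a leucine-binding inhibitor of the same kinase, rose to 12.3 ± 2.58 CPM in induced against 7.88 ± 0.649 CPM in uninduced shAKAP2 cells (SD, n = 4 each; log2 fold change 0.65, SE 0.155, adjusted p = 0.00349). In shScramble SESN2 gave 0.34 (SE 0.157, adjusted p = 0.514), and the difference of 0.31 (SE 0.22, adjusted p = 0.379) was not called. TRIB3, a pseudokinase that restrains ATF4, gave -0.07 (SE 0.118) and CHAC1, which degrades glutathione, 0.57 (SE 0.219, adjusted p = 0.0581), and neither was called.

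With all libraries no amino acid transporter was called on induction, and the SLC7A11 message differed between the lines. SLC7A11, the cystine importer of the plasma membrane, had 301, 249.7, 258 and 223 CPM in induced and 178, 200.4, 215 and 172 CPM in uninduced shAKAP2 libraries. In the control line it had 44.9, 71.7, 84.5 and 79.1 CPM with and 81.9, 94.9, 112 and 129 CPM without doxycycline. Every shAKAP2 library lay above every shScramble library, and induced lay above uninduced within shAKAP2. The doxycycline effects of 0.43 (SE 0.17, adjusted p = 0.0705) in shAKAP2 and -0.57 (SE 0.172, adjusted p = 0.177) in shScramble had opposite signs and did not pass, and their difference of 1.01 (SE 0.242, adjusted p = 0.00872) did. With replicate 1 of both shScramble groups left out, SLC7A11 was called on induction, at 0.43 (SE 0.112, adjusted p = 0.00896). SLC7A11 was higher in shAKAP2 than in shScramble by 1.88 (SE 0.176, adjusted p = 5.01e-07) with doxycycline and by 0.87 (SE 0.171, adjusted p = 0.00303) without it. SLC7A5 and SLC3A2, the chains of the large neutral amino acid exchanger, gave -0.25 (SE 0.211) and 0.23 (SE 0.177) on induction, and SLC7A1, the cationic amino acid carrier, 0.00 (SE 0.145), none of them called.

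With all libraries, the other members of the ATF4 arm were not called on induction. Asparagine synthetase ASNS gave 0.08 (SE 0.114), and its counts may hold reads of AC079781.5, which shares 44.6% of its exonic bases. The transfer RNA synthetases CARS, WARS and GARS gave -0.05, 0.10 and 0.15. PCK2, a mitochondrial enzyme that makes phosphoenolpyruvate, gave 0.30 (SE 0.132, adjusted p = 0.0983), and the lipoprotein receptor VLDLR 0.45 (SE 0.314, adjusted p = 0.321). Without both shScramble libraries numbered 1, PCK2 (0.30, adjusted p = 0.0287), VLDLR (0.45, adjusted p = 0.0265) and GARS (0.14, adjusted p = 0.0271) were called as higher. ASNS, CARS, WARS and NUPR1 were still not called. NUPR1, a small stress-induced chromatin protein, had 0.906, 0.806, 1.28 and 0.879 CPM in induced and 1.26, 1.31, 1.75 and 1.28 CPM in uninduced shAKAP2 libraries, and 6.74, 3.6, 2.78 and 2.46 CPM with and 6.34, 2.07, 2.69 and 2.86 CPM without doxycycline in shScramble. Its shAKAP2 libraries all lay below the shScramble ones, and within shAKAP2 the values overlapped. NUPR1 was lower in shAKAP2 than in shScramble, with a log2 fold change of -2.00 (SE 0.361, adjusted p = 0.000172) with doxycycline and by -1.33 (SE 0.346, adjusted p = 0.0123) without it. With both shScramble libraries numbered 1 left out, these were -1.60 (SE 0.279, adjusted p = 1.47e-05) and -0.86 (SE 0.272, adjusted p = 0.0176). With 1 library left out, the value without doxycycline was lost only without untreated shScramble replicate 1 (adjusted p = 0.0631), where it was -0.86.

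ATF4 binds the CARE element (TGATGNAA), which was found on either strand in 4 of the 22 promoters of the ATF4 arm and in that of HERPUD1, against 3.62% of all promoters. Those that lie before the start are given in the same manner, because with all libraries none of the 4 genes of the arm was called on induction while HERPUD1 was. The HERPUD1 call was lost under several alternatives. Without both shScramble libraries numbered 1, edgeR also called CHAC1 (log2 fold change 0.56, adjusted p = 0.0356) and GARS (0.14, adjusted p = 0.0271) as higher, and not CEBPG or SLC7A1.
HERPUD1 (chr16:56931955-56931984, CARE 169 bases before the start): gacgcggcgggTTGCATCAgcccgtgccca
CHAC1 (chr15:40953251-40953280, CARE 202 bases before the start): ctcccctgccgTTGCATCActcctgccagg
CEBPG (chr19:33374060-33374089, CARE 35 bases before the start): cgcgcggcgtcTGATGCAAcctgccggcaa
GARS (chr7:30594834-30594863, CARE 26 bases before the start): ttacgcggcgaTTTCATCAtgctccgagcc
The windows of CHAC1, CEBPG and GARS lie within the annotated gene in GENCODE release 29, since longer transcripts begin upstream. The element of SLC7A1 lies after the start. No CARE in these windows says only that the letters are not there, as for ATF3, PSAT1 and PPP1R15A.

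In shScramble cells doxycycline called none of the 48 members with edgeR's quasi-likelihood test, where 8 had an unadjusted p under 0.05, as did 1456 of the 15566 genes. DESeq2 called 3 members and limma-voom 0, and DESeq2 also called more of all genes than edgeR, as given below. Without replicate 1 of treated shScramble 1 member was called, and without replicate 1 of untreated shScramble 2 were. Over all genes, 101 to 409 were called with 1 library left out. The smallest adjusted p was that of EIF2AK3, and the 8 were DDIT3, SLC7A11, ERN1 and EIF2AK3 with lower values and SESN2, ASNS, ATF6 and HYOU1 with higher ones. Without both shScramble libraries numbered 1, where 3.73% of all genes were higher and 2.63% lower, 5 members were higher. These were HSPA5 (0.27), HYOU1 (0.28), SEL1L (0.24), ATF6 (0.20) and CALR (0.15). SLC7A11 (-0.51) and EIF2AK3 (-0.39) were lower, all values being log2 fold changes. In the same fit the difference between the lines was called in 9 members of the ATF4 arm and 6 of the ATF6/XBP1 arm, with 14.3% of all genes higher and 16.3% lower. SEL1L was then lower in induced shAKAP2 (-0.77) and higher in treated shScramble cells.

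Within groups the ATF6/XBP1 arm varied less than genes at large in shAKAP2: the median coefficient of variation over 4 libraries was 5.13% in induced and 4.4% in uninduced cells, against 10.2% and 8.72% over all genes tested. In shScramble it was 10.7% with and 15.1% without doxycycline, against 15% and 14.4% over all genes. The arm holds the most abundant members, and the genes were not matched on level, so the part of level in this difference was not tested. The replicate 1 libraries of shScramble stand out among the members, as does replicate 4 of shAKAP2. Replicate 1 was the highest of its group for 16 of the 21 members of the ATF6/XBP1 arm with doxycycline and for 18 of 21 without it, where it was highest for 37.8% and 34.5% of all genes. In the ATF4 arm it was the lowest of its group for 15 of 27 members in both conditions, against 36.7% and 34.4% of all genes. CALR had 2121, 1664, 1504 and 1534 CPM with and 1840.3, 1422, 1418 and 1393 CPM without doxycycline in shScramble, and HSP90B1 1764, 1392, 1318 and 1338 CPM and 1694, 1294, 1183 and 1222 CPM. The transporter chain SLC3A2 went the other way, with 169.7, 275, 321 and 307 CPM with and 204, 279, 326 and 289 CPM without doxycycline. In both replicate 1 libraries CALR, HSPA5, HSP90B1 and PDIA3 were the highest of their group and SLC3A2, SLC7A5 and SLC7A11 the lowest, while DDIT4, NUPR1 and VLDLR were the highest. In induced shAKAP2, replicate 4 was the lowest of its group for 18 of 27 members of the ATF4 arm and 14 of 21 of the ATF6/XBP1 arm, against 24.7% of all genes. In uninduced shAKAP2, replicate 4 was the lowest for 17 of 27 and 7 of 21, against 26.6% of all genes. What set these libraries apart was not tested.

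**Figure D4:**
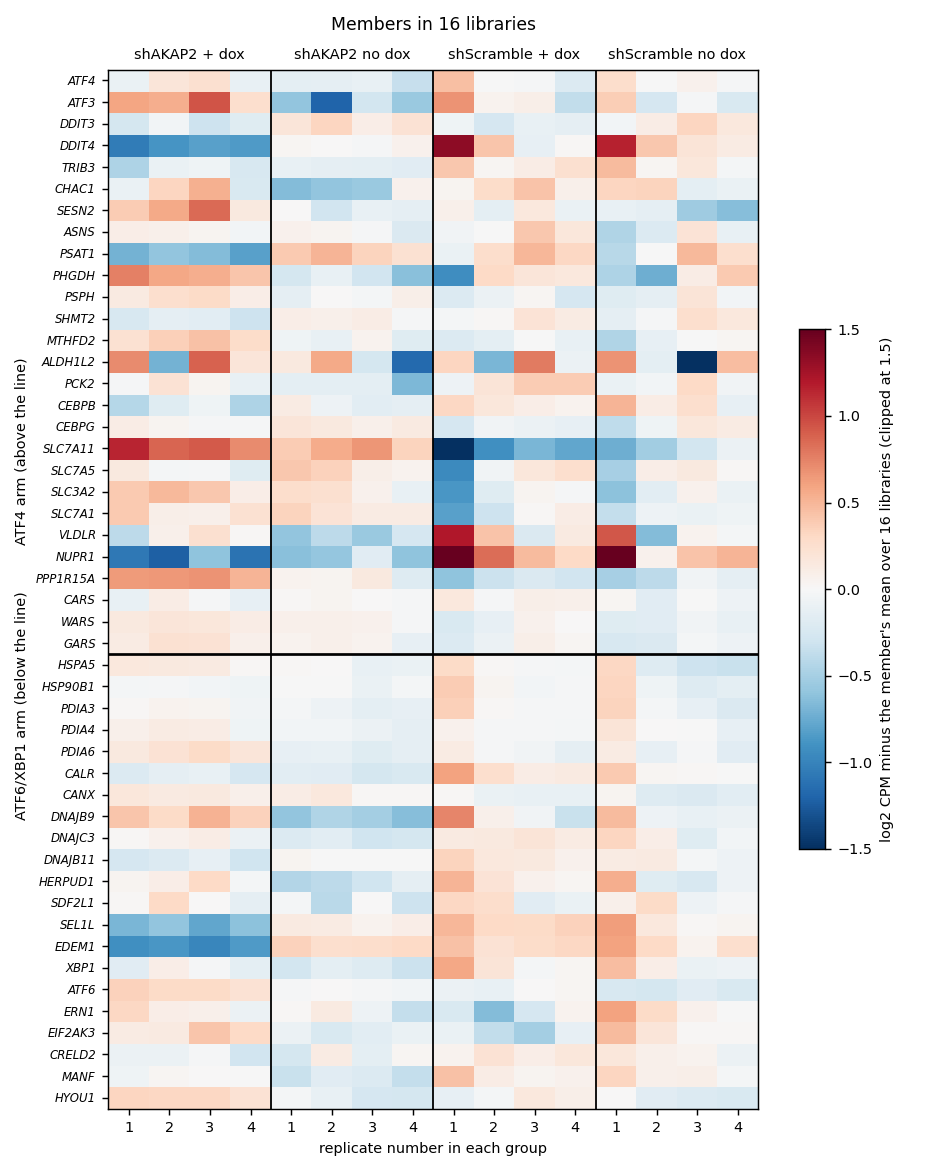
Log2 CPM of each member minus its mean over the 16 libraries (colour, clipped at 1.5; red, above the mean), with the libraries of each group in columns numbered by replicate and the ATF4 arm above the ATF6/XBP1 arm. The first shScramble column of each condition is red for most of the ATF6/XBP1 arm, and EDEM1 and SEL1L are blue in induced shAKAP2.

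Set against shScramble under doxycycline, 9 members of the ATF4 arm were higher and 6 lower in induced shAKAP2, and 5 of the ATF6/XBP1 arm higher and 4 lower, where 18.7% of all genes were higher and 21.5% lower. Beside SLC7A11, PPP1R15A and MTHFD2 (0.44), the higher members of the ATF4 arm were SLC3A2 (0.57), SESN2 (0.52), SLC7A1 (0.41), PSPH (0.32), WARS (0.22) and GARS (0.20). Beside NUPR1, the lower ones were DDIT4 (-1.43), PSAT1 (-0.95), CEBPB (-0.44), TRIB3 (-0.41) and SHMT2 (-0.29). In the ATF6/XBP1 arm EIF2AK3 (0.52), ATF6, HYOU1 (0.27), PDIA6 (0.23) and CANX (0.21) were higher, and EDEM1, SEL1L (-1.02), CALR (-0.46) and DNAJB11 (-0.40) lower, all values being log2 fold changes. The call of GARS was lost without induced shAKAP2 replicate 2 or 3 or doxycycline-treated shScramble replicate 1 or 2 (adjusted p of 0.0853 to 0.09), that of SLC7A1 without induced shAKAP2 replicate 1 or 4 or doxycycline-treated shScramble replicate 1 or 2 (adjusted p of 0.0529 to 0.103), and that of SESN2 without induced shAKAP2 replicate 3 (adjusted p = 0.0612). With no filter on low counts the calls of SLC3A2 (adjusted p = 0.0661), SLC7A1 (adjusted p = 0.13) and GARS (adjusted p = 0.0514) were lost, and with only the groups compared those of SLC7A1 (adjusted p = 0.0938) and GARS (adjusted p = 0.0669). The SLC7A1 value was 0.24 without treated shScramble replicate 1. Without both shScramble libraries numbered 1 all 24 calls held, but sizes moved in both directions. DDIT4 (-1.02), CALR (-0.34) and SLC3A2 (0.40) were then smaller, and PSAT1 (-1.06), EIF2AK3 (0.57) and PDIA6 (0.28) larger.

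Without doxycycline the lines already differed in 8 members, 1 higher and 1 lower in the ATF4 arm and 2 higher and 4 lower in the ATF6/XBP1 arm, where 8.65% of all genes were higher and 9.31% lower. Beside SLC7A11 and NUPR1, and the lower DNAJB9, DNAJC3 and MANF, these were ATF6 and the lectin chaperones. CALR was lower in shAKAP2 with doxycycline (log2 fold change -0.46, SE 0.0976, adjusted p = 0.000805) and without it (log2 fold change -0.32, SE 0.0975, adjusted p = 0.0275), and all its shAKAP2 libraries lay below the shScramble ones of the same treatment. CANX, which shares its glycoprotein clients, was higher in shAKAP2. It had 2029.6, 1988, 1993 and 1899.8 CPM in induced shAKAP2 against 1829, 1681, 1674 and 1666 CPM in shScramble with doxycycline. Uninduced shAKAP2 libraries had 1956, 2016, 1822 and 1829.5 CPM against 1852, 1583, 1558 and 1612 CPM in untreated shScramble. The groups did not overlap with doxycycline and overlapped without it. CANX gave 0.21 (SE 0.0615, adjusted p = 0.0106) with and 0.21 (SE 0.0615, adjusted p = 0.0252) without doxycycline. With 1 library left out, the ATF4 arm had 1 call without untreated shScramble replicate 1 and 4 calls without uninduced shAKAP2 replicate 4 or untreated shScramble replicate 3 or 4, and the ATF6/XBP1 arm had 3 calls without uninduced shAKAP2 replicate 1 or 3. Over all genes, 1669 to 2592 were called with 1 library left out, against 2795 with all libraries. Without doxycycline the call of CALR was lost without uninduced shAKAP2 replicate 1, 2, 3 or 4 or untreated shScramble replicate 1 (adjusted p of 0.0542 to 0.079) and that of CANX without uninduced shAKAP2 replicate 1 or 2 or untreated shScramble replicate 2, 3 or 4 (adjusted p of 0.058 to 0.0893). With untreated shScramble replicate 1 left out, the CALR value was -0.21.

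Other genes of the same pathways, from lists written for this purpose, were counted in the same way. On induction of the AKAP2 hairpin, where 13.1% of all genes were higher and 15.2% lower, eIF2 subunits, kinases and exchange factors had 0 higher and 3 lower of 14 (median log2 -0.03): EIF2S1, the subunit that the kinases phosphorylate, changed by -0.54 (SE 0.0823, adjusted p = 4.03e-05), EIF2S3 by -0.46 (SE 0.0828, adjusted p = 0.000241) and the exchange factor subunit EIF2B1 by -0.29 (SE 0.072, adjusted p = 0.0045). The differences from shScramble were called for the same 3, at -0.50 (SE 0.116, adjusted p = 0.00452), -0.40 (SE 0.117, adjusted p = 0.0222) and -0.31 (SE 0.101, adjusted p = 0.0378). Other ATF4 targets had 3 higher and 2 lower of 25 (median -0.04), among them the angiogenic factor VEGFA at -0.57 (SE 0.0578, adjusted p = 2.26e-07), the proline synthesis enzyme ALDH18A1 at 0.35 (SE 0.054, adjusted p = 4.7e-05) and CTH, which makes cysteine, at 0.50 (SE 0.127, adjusted p = 0.00511). VEGFA was also lower in shScramble with doxycycline, at -0.33 (SE 0.0572, adjusted p = 0.00321), whereas ALDH18A1, higher in induced shAKAP2, was lower in shScramble with doxycycline, at -0.27 (SE 0.0541, adjusted p = 0.0126). Other cytosolic transfer RNA synthetases had 4 higher and 2 lower of 17 (median 0.13): NARS changed by -0.96 (SE 0.093, adjusted p = 1.24e-07), AARS by -0.77 (SE 0.0977, adjusted p = 5.2e-06) and TARS by 0.38 (SE 0.0675, adjusted p = 0.000257).

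Other ER folding and ERAD genes had 10 higher and 7 lower of 35 (median log2 0.05), against the same 13.1% and 15.2% of all genes. The translocation factor SEC62 changed by -0.90 (SE 0.0735, adjusted p = 1.11e-08), P4HB, the main disulfide isomerase, by -0.97 (SE 0.0856, adjusted p = 3.15e-08), and SERP1, which steadies membrane proteins at the translocon, by 0.42 (SE 0.0746, adjusted p = 0.000202). The differences from shScramble were -0.97 (SE 0.103, adjusted p = 1.03e-06) for SEC62 and -0.98 (SE 0.12, adjusted p = 6.77e-06) for P4HB. Other ER stress transducers had 4 higher and 2 lower of 10 (median 0.11): the membrane-bound factor CREB3L2 changed by -0.90 (SE 0.0884, adjusted p = 1.58e-07), MBTPS2, the protease that cuts ATF6, by 0.44 (SE 0.0619, adjusted p = 1.8e-05), and the apoptosis gene BAX by 0.38 (SE 0.0646, adjusted p = 0.000134). CREB3L2 was also lower in shScramble with doxycycline, at -0.50 (SE 0.0879, adjusted p = 0.00436).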

How the data were processed

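RNA of 16 libraries was measured by sequencing after oligo(dT) selection with a NEBNext kit, per the labels' protocols. The authors deposited raw counts per gene for all libraries in 1 table. STAR 2.5.2b, Subread 1.5.2, featureCounts and GRCh38 are named in the submitters' processing notes. The release of the annotation was not given in the sources used here, nor was strand use in counting, so reads of overlapping genes cannot be told apart. Of 57500 gene rows, 26937 had no count in any library and 485 had an Ensembl identifier but no name. Totals per library are in the report, and 48 of 48 members had a count.

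Counts were analysed with R 4.3.3 and edgeR 4.0.16: the default filter on low counts by group left 15566 genes, libraries were scaled by TMM, and 1 quasi-likelihood model over the 16 libraries had a mean for each group (12 residual degrees of freedom, common biological coefficient of variation 14.4%), which pools the spread over the 4 groups. The 5 contrasts were doxycycline against none in each line, the difference of these effects, and the line contrast, shAKAP2 over shScramble, in each condition. Calls were made at an adjusted p under 0.05, by Benjamini-Hochberg adjustment over all 15566 genes, and the standard error (SE) was taken from the fit. CPM use the scaled library size, and RPKM also the exonic bases of GENCODE release 29, whose coordinates are given, matched by Ensembl identifier. Promoter sequences came from RefSeq (GRCh38.p14) and were found for 42 of the 48 members. Each called member is named, and values per library are given for the sensors, ATF4, DDIT3, XBP1 and HSPA5 and for the 3 called members with the smallest p per arm, direction and comparison. From each other list up to 3 genes with the smallest p are named. The members and all lists were chosen with earlier results of these data known. The scripts were tested on simulated data. Alternatives were DESeq2 size factors, no filter, DESeq2 1.42.0, limma-voom (limma 3.58.1), only the groups compared, a replicate block, leaving out each library, and leaving out both shScramble libraries numbered 1.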

Additional observations from a re-analysis of the deposited data

Results flagged for a closer look

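Libraries that stood far from the other 3 of their group were found in 19 of the 192 groups of 4 values tested, where chance flags about 1 in 20 groups. That rate holds for independent values, which members of the same library are not, and the share over all genes was not computed. Replicate 1 of shScramble also deviated over all genes (median absolute log2 deviation 0.295 with and 0.263 without doxycycline). The count is therefore not a trait of the members. In shScramble with doxycycline, replicate 1 was apart for 7 members: PHGDH was low at 2.26 CPM, and HSPA5 (1141 CPM), HSP90B1 (1764 CPM), PDIA3 (579.8 CPM), PDIA4 (363 CPM), CANX (1829 CPM) and MANF (96.0 CPM) were high. Without doxycycline, replicate 1 of shScramble was high for CALR (1840.3 CPM), DNAJB9 (40.5 CPM) and HERPUD1 (64.8 CPM) and low for SLC7A1 (166 CPM), and replicate 3 was high for PCK2 (26.7 CPM). In uninduced shAKAP2, replicate 4 was low for ATF4 (134 CPM), PCK2 (13.5 CPM), WARS (155 CPM) and GARS (340 CPM) and high for CHAC1 (3.63 CPM), and replicate 3 was high for NUPR1 (1.75 CPM). In induced shAKAP2, replicate 4 was low for HYOU1 (301 CPM).

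The doxycycline effect differed between the lines, by the interaction term with edgeR's adjusted p under 0.05, in 12 members. As log2 differences of shAKAP2 minus shScramble, the effect was higher in shAKAP2 for ATF3 (1.08), SLC7A11 (1.01), DNAJB9 (0.85), EIF2AK3 (0.84), PPP1R15A (0.69), ERN1 (0.68), MTHFD2 (0.39) and PDIA6 (0.32). It was lower in shAKAP2 for EDEM1 (-1.20), PSAT1 (-1.20), SEL1L (-0.89) and DNAJB11 (-0.36).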

How the results depend on the processing

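No member called in any of the comparisons changed direction under an alternative, and no scaling moved the median of all genes by over 0.1. Of the 1044 values of called members under alternatives, 96 were no longer called, 84 of them with 1 library left out. On induction in shAKAP2 the ATF4 arm had 9 calls, and 16 with only the groups compared and 16 without both shScramble libraries numbered 1. Over all genes, 13.1% were higher and 15.2% lower with all libraries, and 19.3% and 20.1% without both of these. In shScramble, where no member was called, the ATF4 arm had 1 with DESeq2 and 1 without both libraries, the ATF6/XBP1 arm 1 without the filter, 2 with DESeq2 and 6 without both libraries, and all genes 168 calls, against 300 with DESeq2, 37 with only the groups compared and 1002 without both libraries. Without both libraries the difference of the effects had 9 calls instead of 5 in the ATF4 arm and 4823 instead of 2802 over all genes. Without doxycycline the ATF4 arm had 2 calls between the lines, and 4 without the filter, 6 with DESeq2, 4 with the replicate block, 5 with only the groups compared and 6 without both libraries. With all libraries, 8.65% of all genes were higher and 9.31% lower in that comparison. For these alternatives, and for induction with only the groups compared, the share of all genes is not given here. A change across all genes was therefore not separated from a change in the members. The causes were not tested.

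With 1 library left out, calls in the ATF4 arm, the ATF6/XBP1 arm and all genes numbered 8 to 9, 7 to 10 and 3595 to 4028 on induction in shAKAP2, and 0 to 0, 0 to 2 and 101 to 409 in shScramble. They numbered 3 to 7, 5 to 8 and 2249 to 3622 for the difference, 13 to 15, 9 to 10 and 5547 to 6053 between lines with doxycycline, and 1 to 4, 3 to 7 and 1669 to 2592 without it.

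The replicate numbers were not taken as pairing the libraries. Deviations of same-numbered libraries from their group means correlated at -0.0996 to 0.4 over 24 pairs, over 0.1 in 2 of them. A library correlated best with its own number in 8. Both pairs over 0.1 were of shScramble with and without doxycycline, replicate 1 at 0.4 and replicate 3 at 0.197. The numbers may thus pair libraries within shScramble. Such a pairing was not fitted, and its part in the shScramble and difference calls was not tested. The replicate block gave each number a shift common to both lines, so it cannot test a pairing within shScramble alone. With this block, the ATF4 arm without doxycycline had the 4 calls given, and every member called without the block was still called. The effect of depth was not tested.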

Other observations

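Cytosolic heat shock genes and mitochondrial stress genes, which answer misfolding outside the ER, were counted beside the members. On induction in shAKAP2 the heat shock genes had 3 higher and 1 lower of 16 (median log2 0.14), where 13.1% of all genes were higher and 15.2% lower: the small heat shock protein HSPB1 changed by -0.63 (SE 0.0893, adjusted p = 1.72e-05), and the J proteins DNAJB4 by 0.36 (SE 0.0875, adjusted p = 0.00342) and DNAJB1 by 0.23 (SE 0.0582, adjusted p = 0.00511). DNAJB1 was lower in shScramble with doxycycline, at -0.41 (SE 0.0583, adjusted p = 0.000535), and the difference of the effects was 0.64 (SE 0.0824, adjusted p = 1.34e-05). With doxycycline, shAKAP2 against shScramble gave 10 higher and 1 lower of 16 (median 0.26), where 18.7% of all genes were higher and 21.5% lower, and without doxycycline 5 higher and 0 lower of 16 (median 0.21), where 8.65% were higher and 9.31% lower, with HSP90AA1 at 0.44 (SE 0.102, adjusted p = 0.00608). Mitochondrial stress genes had 1 higher and 2 lower of 13 on induction (median -0.10), against the same 13.1% and 15.2%: the protease YME1L1 changed by -0.41 (SE 0.0538, adjusted p = 7.56e-06), the J protein DNAJA3 by -0.47 (SE 0.0971, adjusted p = 0.000957) and the chaperonin partner HSPE1 by 0.24 (SE 0.0837, adjusted p = 0.0393). All values are log2 fold changes with edgeR's adjusted p.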
